A study of Homo sapiens with 8 samples.

Results

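The antiviral effector genes are a set of 43 interferon-stimulated genes, many of whose products act directly on viruses, tag proteins or modify nucleic acids. They were taken by gene symbol from the deposited count table of 38173 genes, and all 43 were found and passed the filter on low counts. The cells were MH7A, a synovial fibroblast line established from a patient with rheumatoid arthritis and immortalised with a viral T antigen, so every library comes from 1 immortalised line. The study sequenced poly(A) RNA of 8 libraries in 4 groups of 2. Mock cells carried a DMSO label. The TNF group received tumour necrosis factor at 20 ng (given per ml in the study's design text and per µl in the sample labels) for 24 h. The TNF + Tub B group received the same TNF with 60 µM Tubuloside B (Tub B) at the same time for 24 h. The Tub B group received 60 µM Tubuloside B alone for 24 h. The study's title concerns the compound and the kinase TAK1, which links the TNF receptor to NF-κB.

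TNF is not itself an interferon. It activates NF-κB, and in fibroblasts it also raises the interferon regulatory factor IRF1 and, with a delay, interferon-β. Secreted interferon-β binds the receptor IFNAR1/IFNAR2, the kinases JAK1 and TYK2 are activated, and a complex named ISGF3, which holds STAT2 and IRF9, forms and enters the nucleus. ISGF3 binds the interferon-stimulated response element (ISRE) in promoters of antiviral genes. Genes of this kind are found raised in synovial tissue and blood of some patients with rheumatoid arthritis.

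The ISRE core is visible in the promoter letters of many of the effectors. RefSeq promoter windows (GRCh38.p14, 250 bases before to 50 after each start) matched 33 of the 43 genes. The core, GAAA followed by any 2 bases and GAAA again, was searched on both strands and occurred in 21 of those 33 windows (63.6%), against 4.38% of 27305 genes. Matches to a STAT site (TTCNNNGAA, which reads the same on both strands) were in 9 of 33 (27.3%), against 9.38% of all genes. Matches to the NF-κB consensus were in 2 of 33, BST2 and XAF1 (6.06%), against 7.09% of all genes. In BST2, EPSTI1, IFI27 and MX1 the ISRE match overlapped a match to the STAT site, and no ISRE match overlapped an NF-κB match. A match describes letters only and shows no bound factor. The stretches below show how these matches look in genes described later. RSAD2 and LGALS3BP had the largest and the smallest rise with TNF, IFI44L the second largest rise, and BST2 the largest fall with added Tub B among members with at least 5 CPM. IFI6 kept the smallest share of its rise, ISG15 is the tag of the conjugation system, and DTX3L shares its site with a neighbour. Capitals mark the ISRE core, and each stretch is written on the gene's own strand.
RSAD2 (chr2:6877622-6877651, + strand): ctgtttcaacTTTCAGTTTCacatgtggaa
ISG15 (chr1:1013374-1013409, + strand): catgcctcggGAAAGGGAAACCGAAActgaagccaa
BST2 (chr19:17405735-17405770, - strand): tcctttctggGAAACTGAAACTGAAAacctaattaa
IFI6 (chr1:27672266-27672358, - strand): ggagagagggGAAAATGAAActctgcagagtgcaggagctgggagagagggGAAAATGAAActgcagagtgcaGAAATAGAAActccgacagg
IFI44L (chr1:78620274-78620394, + strand): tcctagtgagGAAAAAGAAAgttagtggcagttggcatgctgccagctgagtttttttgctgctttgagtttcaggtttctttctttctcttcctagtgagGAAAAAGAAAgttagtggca
LGALS3BP (chr17:78979962-78979991, - strand): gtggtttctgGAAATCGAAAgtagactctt
DTX3L (chr3:122564322-122564351, + strand): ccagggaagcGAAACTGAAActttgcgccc
The core of RSAD2 lies on the strand opposite to the gene. ISG15 and BST2 each hold 2 cores that share their middle bases. The 2 cores of IFI44L lie in a repeated stretch of the same letters. IFI6 and HERC5 each hold 3 matches, the most among the 33. LGALS3BP, the member that TNF raised least, holds 1. The site of DTX3L is shared with PARP9, which starts on the opposite strand. The median log2 rise with TNF was 3.57 for the 21 genes with a match and 3.23 for the 12 without.

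The libraries held 14073186 to 31937334 counted reads, and the 2 libraries of a group differed by more than counting noise (chi-square per degree of freedom 2.22 to 5.22). It is not stated in the labels if replicates were grown as separate cultures. The tests rest on the variation between 2 libraries, and this variation may be technical. The floor of 3 counts stood at 0.0992 to 0.208 CPM (counts scaled to the TMM-adjusted library size). Fibroblast genes such as COL1A1, COL1A2 and VIM were abundant in all libraries. Their 12 listed markers summed to 24581 to 28938 CPM in mock, 24729 to 25760 with TNF, 19465 to 19741 with TNF + Tub B and 25459 to 27062 with Tub B. The lining markers PRG4 and HAS1 had 15 counts or fewer in every library. The epithelial markers EPCAM, CDH1 and KRT5 read at most 0.661, 0.160 and 0.0711 CPM in any library. KRT19, a keratin of the same list, read 138 and 157 CPM in mock and 71.8 and 70.7 with TNF. It read 54.2 and 52.6 CPM with TNF + Tub B and 103 and 82.1 with Tub B. The part of these shifts in the results below was not tested. Leukocyte markers summed to 2.50 to 3.95 CPM and 4 endothelial markers summed to 0.924 to 1.80 CPM. Of 4 plasmacytoid dendritic cell markers, CLEC4C and LILRA4 had 1 count or fewer in each library. The other two, IL3RA and TCF4, were found in every library, and the list summed to 112 to 115 CPM in mock, 136 to 139 with TNF, 93.6 to 98.3 with TNF + Tub B and 101 to 104 with Tub B. In bulk RNA, fewer cells of a type and less RNA per cell cannot be told apart.

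One feature of the libraries bears on every value below. The effectors were higher in replicate 2 than in replicate 1 for 38 of 43 members in mock, 42 of 43 with TNF, all 43 with TNF + Tub B and 24 of 43 with Tub B. The median difference between the 2 libraries was 0.35, 0.27, 0.47 and 0.02 on the log2 scale in that order. Over all tested genes 49.4% to 50.3% were higher in replicate 2, the signed median was within 0.003 of 0, and the median absolute difference was 0.0889 to 0.118. The cause was not tested.

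**Figure D1:**
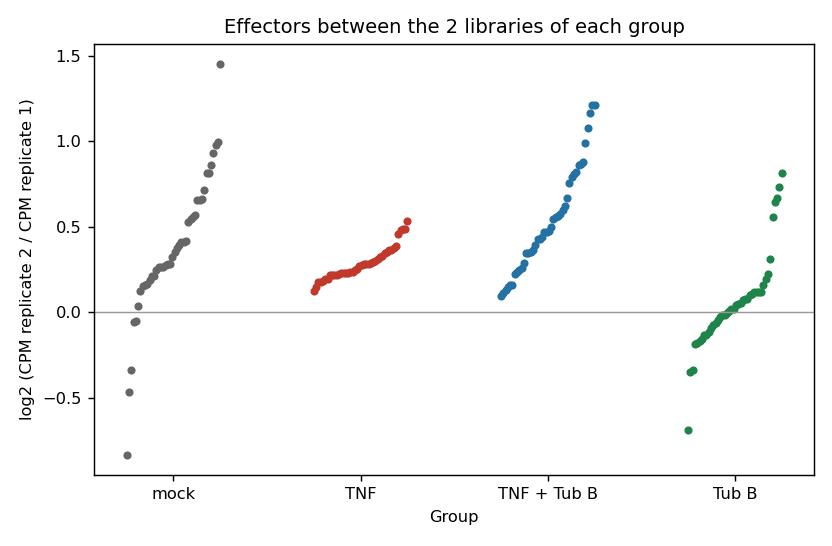
Log2 ratio of CPM in replicate 2 to replicate 1 for the antiviral effectors in each of the 4 groups (1 point per gene, LAMP3 left out for its low counts, genes in order of the ratio). Most points of mock, TNF and TNF + Tub B lie above 0, with medians of 0.35, 0.27 and 0.47, while those of Tub B centre near 0.

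TNF raised every effector. The 43 genes together took 0.100% and 0.124% of all counts in mock, 0.724% and 0.871% with TNF, 0.189% and 0.253% with TNF + Tub B and 0.0867% and 0.0891% with Tub B. All 43 members were higher with TNF than in mock, each at least 2-fold. Of the 16647 genes tested, 17.2% were higher and 4.16% at least 2-fold higher. LAMP3 counts among the 43, although it passed the filter on low counts only through the TNF group, which favoured its rise. The median log2 fold change of the members was 3.23 (3.16 with LAMP3 at its lower bound), against -0.003 over all genes. Changes ran from 2.00-fold for LGALS3BP to 81.5-fold for RSAD2. In all 43 both TNF libraries lay above both mock libraries, as they did in 31.9% of all genes tested. The adjusted p (edgeR's quasi-likelihood test) was at most 0.00044, the value of LAMP3, and every call held under the alternatives that tested the gene.

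The radical SAM enzyme RSAD2 (viperin), which makes a chain-terminating nucleotide, had the largest rise. Its level was 1.95 and 3.72 CPM in mock and 184 and 252 CPM with TNF, a log2 fold change of 6.35 ± 0.24 (SE). Its genomic neighbour CMPK2, a nucleotide kinase that supplies the substrate of viperin, went from 2.88 and 2.09 CPM to 116 and 141 CPM (5.64 ± 0.20). Both genes were under 5 CPM in each mock library and above 100 CPM in each TNF library.

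The next group holds GTPases, membrane proteins and a few others such as XAF1, and all 10 members rose, with a median of 4.51. MX1, the dynamin-like GTPase that blocks influenza virus, read 14.4 and 28.8 CPM in mock and 690 and 881 CPM with TNF (5.25 ± 0.24). Its paralog MX2, which acts on HIV at the nuclear pore, read 8.07 and 14.7 CPM and then 293 and 383 CPM (4.96 ± 0.21). The cytoplasmic protein IFI44L went from 2.99 and 5.24 CPM to 188 and 244 CPM (5.79 ± 0.26), while its paralog IFI44 rose by 3.80 ± 0.15 log2 units. BST2 (tetherin), which holds budding virions at the cell surface, went from 0.960 and 1.58 CPM to 25.9 and 36.2 CPM (4.66 ± 0.24). EPSTI1 had 1.95 and 3.44 CPM in mock and 59.5 and 76.7 CPM with TNF (4.73 ± 0.22). IFI27, a small mitochondrial and nuclear-envelope protein, had 0.782 and 2.14 CPM in mock and 22.9 and 32.1 CPM with TNF. Its rise of 20.4-fold became 12.6-fold without mock replicate 1 and 34.3-fold without mock replicate 2. XAF1, a binder of the apoptosis inhibitor XIAP, rose by 3.23 ± 0.15, although 69.9% of its exonic bases overlap the opposite-strand gene PRAL and the libraries do not mark strand. The lysosomal protein LAMP3 was the lowest member, with 1 and 2 counts in mock. It passed the filter on low counts only through the TNF group, so its rise was favoured by the filter. TNF brought it to 23 and 14 counts, 11.5 times the mock rate (95% interval from counting error alone, 3.65 to 58.5).

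The ISG15 conjugation system rose as a whole. ISG15 is a ubiquitin-like protein, UBA7 its activating enzyme, UBE2L6 its conjugating enzyme, HERC5 its ligase, and USP18 removes it and also dampens the interferon receptor. USP18 had the largest rise of the 6, from 1.32 and 2.59 CPM to 55.3 and 70.5 CPM (5.10 ± 0.22). ISG15 itself started much higher, at 48.4 and 71.3 CPM, and reached 453 and 557 CPM (3.10 ± 0.14). The activating and conjugating enzymes rose least, UBA7 by 2.08 ± 0.09 and UBE2L6 by 2.49 ± 0.08, with HERC5 (3.74 ± 0.19) and its relative HERC6 (3.85 ± 0.14) between.

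The ADP-ribosylation genes moved in a narrow range. PARP14, a mono-ADP-ribosyltransferase, rose by 3.57 ± 0.14, and PARP10, the lowest of the 5, by 2.36 ± 0.08. PARP9 and its partner DTX3L, an E3 ligase, are divergent neighbours whose transcripts share 217 bases on opposite strands, and they rose by 2.99 ± 0.15 and 2.78 ± 0.11.

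The nucleic-acid group spread more widely, and all 7 rose. ISG20, an RNA exonuclease, went from 0.782 and 1.13 CPM to 19.5 and 23.0 CPM (4.51 ± 0.20). SAMD9L rose by 3.89 ± 0.17 and its paralog SAMD9, which restricts poxviruses, by 2.17 ± 0.12. The helicases DDX60 and DDX60L rose by 2.86 ± 0.11 and 2.90 ± 0.12, and HELZ2, a helicase that acts as a transcriptional coactivator, by 3.41 ± 0.10. IFI16, a nuclear sensor of viral DNA, had one of the smallest rises of the set, from 55.3 and 63.2 CPM to 141 and 170 CPM (1.40 ± 0.10).

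In the nuclear group, BATF2, a bZIP transcription factor, read 1.81 and 1.75 CPM in mock and 32.3 and 37.5 CPM with TNF (4.27 ± 0.21). SP100, a component of PML nuclear bodies, read 67.8 and 82.3 CPM and then 212 and 253 CPM (1.64 ± 0.09). SP110 rose by 2.31 ± 0.11 and IFI35 by 3.23 ± 0.13.

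The 4 apolipoproteins L, of which APOL1 is the trypanosome lytic factor of serum, rose by unequal amounts. APOL3 rose by 3.33 ± 0.13, APOL6 by 3.07 ± 0.10, APOL1 by 2.66 ± 0.11 and APOL2 by 2.05 ± 0.06. APOL2 read 51.6 and 49.6 CPM in mock and 198 and 225 CPM with TNF. These paralogs lie side by side, so reads from shared stretches may be divided among them.

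The last 5 members have separate roles. RTP4, a chaperone of receptors, rose by 4.36 ± 0.26 and the phospholipid scramblase PLSCR1 by 3.16 ± 0.12. ODF3B had 1.03 and 1.24 CPM in mock and 8.59 and 9.37 CPM with TNF (2.997 ± 0.20). GMPR, which converts GMP to IMP, read 5.40 and 7.22 CPM and then 36.1 and 50.5 CPM (2.80 ± 0.17). LGALS3BP, a secreted binder of galectin-3, had the smallest rise of the 43, from 136 and 152 CPM to 269 and 307 CPM (1.00 ± 0.06).

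**Figure D2:**
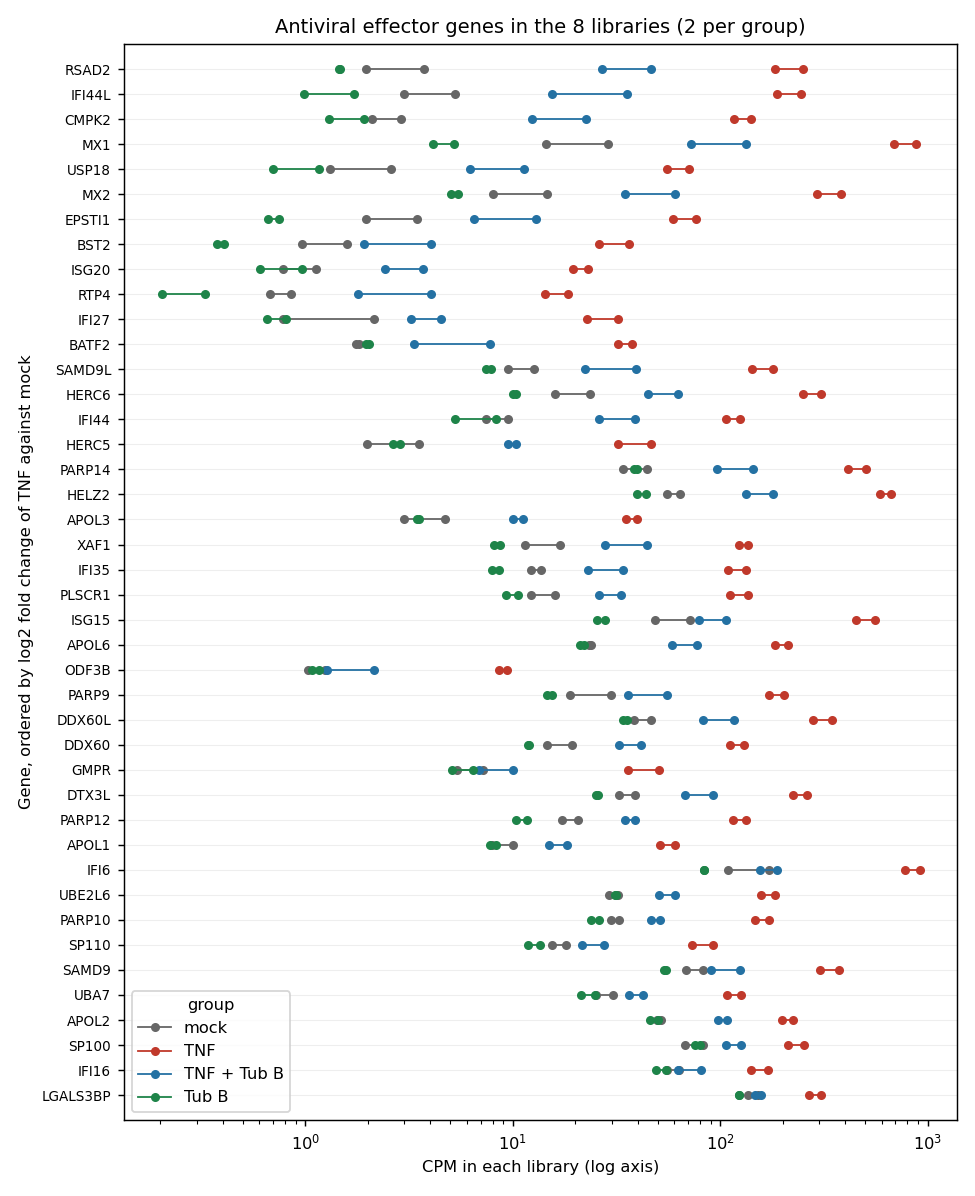
CPM of the antiviral effectors in each of the 8 libraries on a log axis, ordered by the TNF response (2 points joined by a line per group, LAMP3 left out for its low counts). The TNF libraries lie to the right of the mock libraries for every gene, from RSAD2 (81.5-fold) at the top to LGALS3BP (2.00-fold) at the bottom, and the TNF + Tub B libraries lie to the left of TNF.

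Basal levels differed by far more than the responses. Between genes the levels are given as CPM per kb of exon, from GENCODE 29 exon lengths. In mock cells IFI6, a membrane protein of the endoplasmic reticulum that restricts flaviviruses, was the highest, at 126 and 199 CPM per kb. ISG15 followed at 51.4 and 75.7 and LGALS3BP at 52.6 and 59.0 CPM per kb, and the libraries of these neighbours overlapped. IFI16 (18.9 and 21.5), APOL2 (17.8 and 17.1) and UBE2L6 (16.1 and 18.0 CPM per kb) came next, again with neighbouring genes overlapping or nearly so. At the bottom stood LAMP3 at 0.0102 and 0.0325, ISG20 at 0.364 and 0.525, RTP4 at 0.549 and 0.435 and CMPK2 at 0.735 and 0.533 CPM per kb.

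TNF changed the order of the levels. With TNF, IFI6 (903 and 1058 CPM per kb) and ISG15 (481 and 592) stayed first and second. MX1 moved from rank 17 in mock to rank 3, at 171 and 218 CPM per kb, MX2 from rank 24 to rank 5, and RSAD2 from rank 36 to rank 12. IFI16 moved from rank 4 to rank 15 and SP100 from rank 7 to rank 19.

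Genes with low basal levels had the larger fold rises. The 13 members under 5 CPM in mock (without LAMP3) had a median log2 rise of 4.51, the 21 members between 5 and 50 CPM of 2.99, and the 8 members at 50 CPM or more of 2.11. Those levels and folds share the mock libraries. Measured instead in the Tub B libraries, which the TNF comparison does not use, the log2 level per kb and the log2 rise had Pearson's r = -0.80 and Spearman's rho = -0.82 across 42 genes. The Tub B libraries come from treated cells, so this level is not purely basal. In them 15 of the 43 members were lower than in mock, where 7.91% of all genes tested were lower. Genes are not independent replicates, and the correlation is a description.

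Tub B given with TNF lowered every effector. This comparison shares its TNF libraries with the one above, and the values of each are given side by side. All 43 members were lower with TNF + Tub B than with TNF, and 42 of them at least 2-fold, where 13.1% of the genes tested were lower, 2.27% at least 2-fold lower and 7.11% higher. The median log2 fold change was -2.04 (-2.02 with LAMP3 at its bound), against -0.005 over all genes. The exception to the 2-fold level was LGALS3BP, at 1.89-fold lower. In all 43 both TNF + Tub B libraries lay below both TNF libraries, as they did in 31.5% of all genes tested. LAMP3 had 0 and 1 counts against 23 and 14 (ratio 0.0418, 95% counting interval 0.00103 to 0.248). Its fall was favoured by the filter on low counts, which it passed only through the TNF group. DESeq2 gave LAMP3 no adjusted p, so its call was not kept there. The other 42 calls held under all 13 alternatives.

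BST2 had the largest fall among members with at least 5 CPM. It was 25.9 and 36.2 CPM with TNF and 1.91 and 4.02 CPM with TNF + Tub B, 10.6-fold lower (-3.41 ± 0.22). The 2 TNF + Tub B libraries differed from each other, and without replicate 2 of that group the log2 value was -4.01. IFI44L read 15.4 and 35.7 CPM with TNF + Tub B, 8.61-fold lower than with TNF (-3.11 ± 0.20, and -3.81 without replicate 2 of TNF + Tub B). Its paralog IFI44 fell less, by 1.85 ± 0.13, and its libraries read 107 and 125 CPM with TNF and 26.2 and 38.7 CPM with TNF + Tub B.

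MX1 read 72.7 and 134 CPM with TNF + Tub B, 7.66-fold below TNF (-2.94 ± 0.21). MX2 read 34.7 and 60.7 CPM, 7.15-fold below (-2.84 ± 0.18). CMPK2 read 12.4 and 22.7 CPM (-2.89 ± 0.15) and USP18 6.24 and 11.4 CPM (-2.85 ± 0.18). RSAD2 fell less than its neighbour CMPK2 on the log2 scale, to 26.9 and 46.6 CPM (-2.58 ± 0.17), a difference between genes that was not tested.

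At the other end stood SP100 and LGALS3BP. SP100 read 107 and 126 CPM with TNF + Tub B, 2.00-fold below TNF (-1.0001 ± 0.09). LGALS3BP read 147 and 157 CPM (-0.92 ± 0.06). APOL2 was close to them, at 98.1 and 107 CPM (-1.04 ± 0.06), and IFI16 at 62.7 and 80.6 CPM (-1.12 ± 0.10). These 4 genes were also among the 8 with 50 CPM or more in mock.

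The other members fell by amounts between these. The ISG15 system fell by a median of 2.17, with ISG15 at 79.1 and 106 CPM (-2.45 ± 0.13) and UBA7 the least (-1.57 ± 0.09). The 5 ADP-ribosylation genes ranged from -2.04 for PARP9 to -1.60 for DTX3L. In the nucleic-acid group ISG20 fell most (-2.81 ± 0.17), to 2.43 and 3.67 CPM. BATF2 read 3.35 and 7.76 CPM (-2.68 ± 0.18, and -3.38 without replicate 2 of TNF + Tub B), and RTP4 1.79 and 4.02 CPM (-2.52 ± 0.22, and -3.19 without it).

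**Figure D3:**
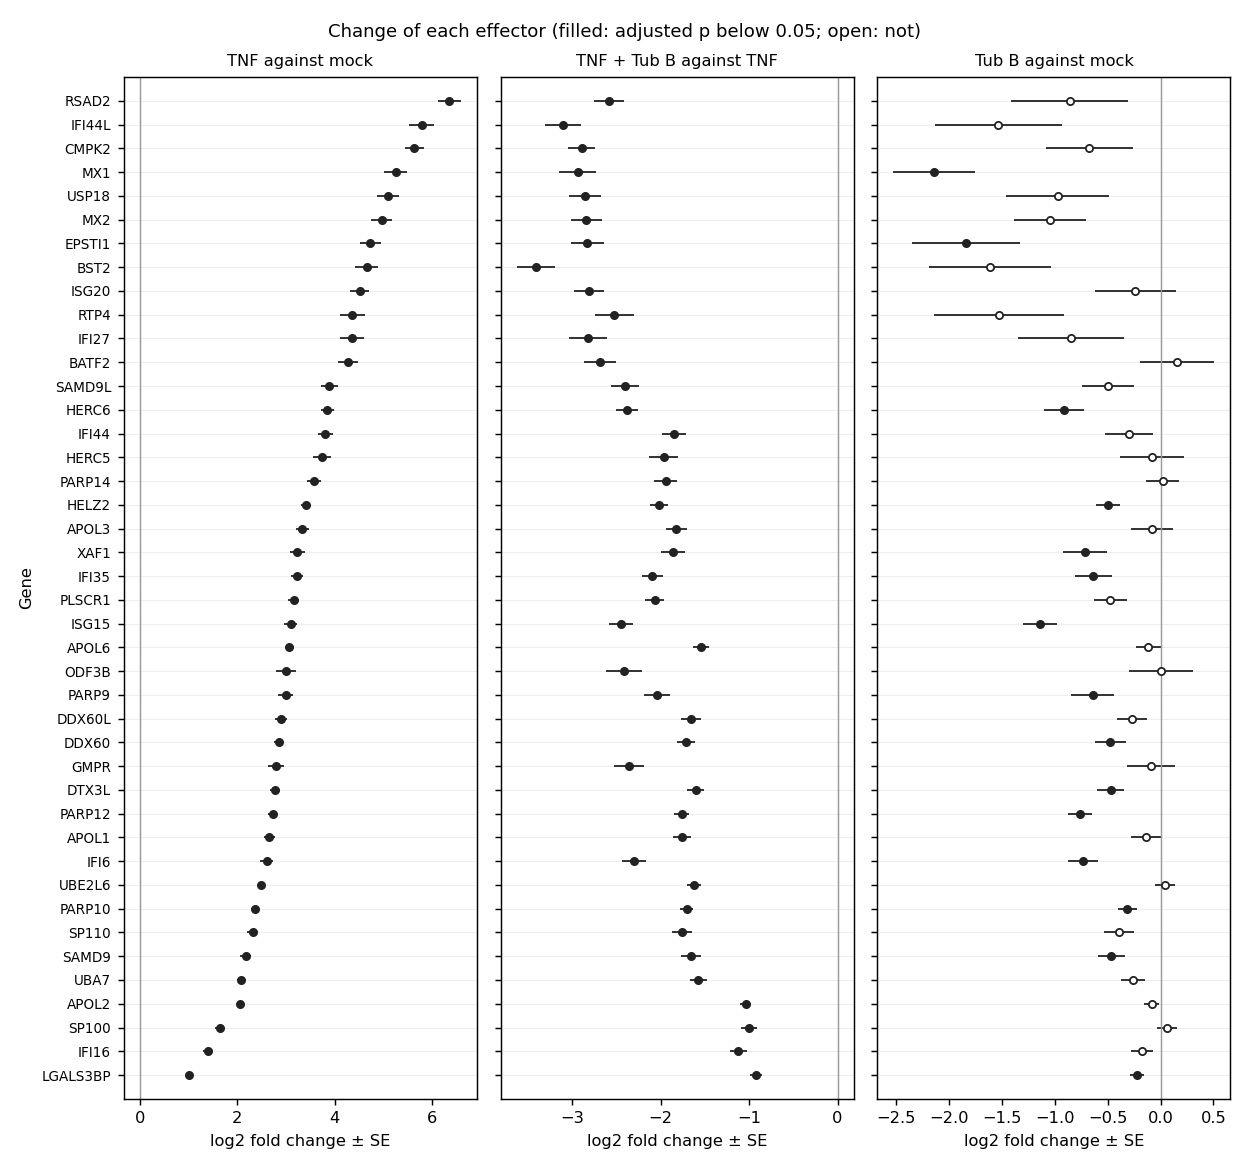
Log2 fold change ± SE of each effector in 3 comparisons, with genes in the order of the TNF response (filled points passed adjusted p below 0.05, open points did not, LAMP3 left out). All points of TNF against mock are filled and above 0, all of TNF + Tub B against TNF are filled and below 0, and 15 of Tub B against mock are filled.

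The effectors did not all return to the same point. The share of the TNF rise left with TNF + Tub B, on the CPM scale above the mock mean, had a median of 13.2% over the 42 members without LAMP3. IFI6 had the lowest share, 4.44%, with 109 and 172 CPM in mock, 781 and 915 with TNF and 156 and 187 with TNF + Tub B. Its mock replicate 2 lay above its replicate 1 of TNF + Tub B, so this share also depends on the mock spread. LGALS3BP, BST2, GMPR, ODF3B, ISG15 and IFI27 were also under 10%, and 29 members lay between 10% and 20%. APOL2 had the highest share, 32.5%, followed by SP100, APOL6, IFI44, DTX3L and DDX60L at 20% or more. The 2 TNF + Tub B libraries differed here too, since the median share was 8.61% in replicate 1 and 18.8% in replicate 2, and it was higher in replicate 2 for all 42 genes. The order of single genes is therefore a description, and neighbours in it overlap.

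**Figure D4:**
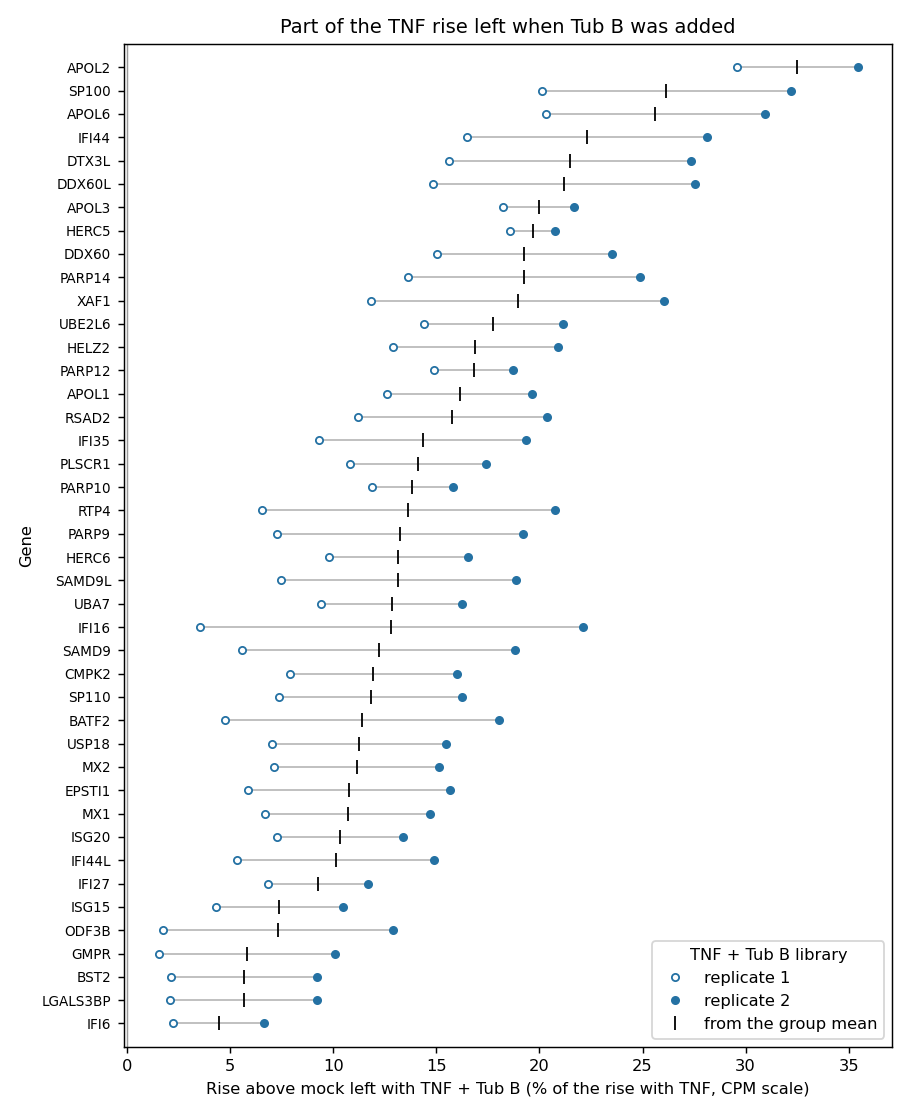
Percent of each effector's TNF rise above the mock mean that was left with TNF + Tub B (open and filled circles are replicates 1 and 2, the tick is the value from the group mean, 42 genes without LAMP3). Values from group means run from 4.44% for IFI6 to 32.5% for APOL2, and replicate 2 lies right of replicate 1 for every gene.

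Against mock itself, 37 of the 43 members were still higher with TNF + Tub B, where 15% of the genes tested were higher, and none was lower (13.9% of genes were). The median log2 difference was 1.24. RSAD2 remained 13.6-fold above mock (3.77 ± 0.29), CMPK2 6.70-fold (2.74 ± 0.26), IFI44L 6.42-fold (3.94-fold without replicate 2 of TNF + Tub B), MX1 4.97-fold, USP18 4.72-fold and MX2 4.36-fold. The 6 members that missed the threshold were LAMP3, LGALS3BP, IFI16, IFI6, GMPR and ODF3B. IFI6 differed by 0.30 ± 0.14, IFI16 by 0.28 ± 0.10 and LGALS3BP by 0.08 ± 0.07, and for all of these the libraries of the groups overlapped. GMPR read 6.88 and 10.0 CPM against 5.40 and 7.22 in mock (0.44 ± 0.23), and ODF3B 1.27 and 2.15 against 1.03 and 1.24 CPM (0.59 ± 0.30). The calls of ISG15, IFI27, BST2, SAMD9 and SP110 were lost under at least 1 alternative. IFI27 gave an adjusted p of 0.0888 without mock replicate 1, and BST2 0.358 without replicate 2 of TNF + Tub B.

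Tub B alone lowered part of the set. Of the 43 members, 15 were lower with Tub B than in mock and none was higher, where 7.91% of the genes tested were lower and 4.83% higher. The median log2 fold change was -0.47, against 0.003 over all genes. The 15 were MX1, EPSTI1, IFI6, XAF1, ISG15, HERC6, the ADP-ribosylation genes PARP9, PARP10, PARP12 and DTX3L, IFI35, HELZ2, DDX60, SAMD9 and LGALS3BP. This count moved more with the settings than any other in the set. It was 9 with DESeq2 or limma-voom, 28 with no filter on low counts, 6 without mock replicate 2, 5 without Tub B replicate 1, 4 without Tub B replicate 2 and 19 without mock replicate 1. MX1, ISG15, IFI6 and PARP12 were lower under all 13 alternatives.

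MX1 read 5.18 and 4.10 CPM with Tub B against 14.4 and 28.8 CPM in mock, 4.41-fold lower (-2.14 ± 0.39, adjusted p = 0.0012). ISG15 read 27.8 and 25.4 CPM against 48.4 and 71.3 (-1.14 ± 0.16, adjusted p = 0.00012), and IFI6 83.3 and 83.7 against 109 and 172 (-0.74 ± 0.14). PARP12 read 11.7 and 10.4 CPM against 17.2 and 20.7 (-0.76 ± 0.11), and HERC6 10.0 and 10.3 against 16.1 and 23.5 (-0.92 ± 0.19). In each of these genes mock replicate 2 lay above replicate 1.

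MX2 read 5.04 and 5.42 CPM with Tub B against 8.07 and 14.7 in mock, and missed the threshold (-1.05 ± 0.34, adjusted p = 0.054). RSAD2 read 1.45 and 1.47 CPM against 1.95 and 3.72 (-0.86 ± 0.55, adjusted p = 0.36). IFI44L read 0.980 and 1.72 CPM against 2.99 and 5.24 (-1.54 ± 0.60, adjusted p = 0.11). EPSTI1 passed, at 0.747 and 0.659 CPM (-1.84 ± 0.51, adjusted p = 0.023), on a total of 29 Tub B counts. Values of this size rest on few reads, which limits what this depth can show for the low genes.

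PARP14 and ODF3B had the smallest differences. PARP14 read 38.4 and 39.9 CPM with Tub B, within the mock range of 34.1 to 44.2 (0.02 ± 0.16), unlike the 4 other ADP-ribosylation genes, although those differences between genes were not tested. ODF3B read 1.07 and 1.17 CPM (0.00 ± 0.30). None of the 4 apolipoproteins L passed, with log2 values between -0.13 and -0.08. UBE2L6 (0.05 ± 0.09) and SP100 (0.06 ± 0.09) also lay within their mock range.

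Most effectors still rose with TNF in the presence of Tub B. Comparing TNF + Tub B with Tub B, 40 of 43 members were higher, where 14.3% of the genes tested were higher and 12.1% lower, and the median log2 rise was 1.65. RSAD2 rose by 4.63 ± 0.34, MX1 by 4.46 ± 0.32, IFI44L by 4.22 ± 0.42, EPSTI1 by 3.75 ± 0.40, CMPK2 by 3.42 ± 0.29 and USP18 by 3.21 ± 0.37. Without replicate 2 of TNF + Tub B the value was 3.52 for IFI44L, 2.27 for BST2 (from 2.87), 2.71 for RTP4 (from 3.37) and 0.74 for BATF2 (from 1.43). LGALS3BP (0.31 ± 0.07) and IFI16 (0.45 ± 0.11) had the smallest rises that passed, and the call of IFI16 was lost under at least 1 alternative. GMPR (0.53 ± 0.23, adjusted p = 0.11), ODF3B (0.58 ± 0.30, adjusted p = 0.18) and LAMP3 did not pass. LAMP3 had 2 and 1 counts with Tub B and 0 and 1 with TNF + Tub B.

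The TNF response itself was compared between cells without and with Tub B through the interaction term. It was negative and past the threshold in 34 of 43 members, where 3.2% of the genes tested were lower and 1.04% higher. The median was -1.52 on the log2 scale. Among the members that passed, BATF2 had the largest difference in response, a rise of 4.27 without and 1.43 with Tub B (interaction -2.84 ± 0.42, and -3.54 without replicate 2 of TNF + Tub B). ISG20 followed at -2.57 ± 0.45, with Tub B libraries at 0.607 and 0.963 CPM. ODF3B (-2.42 ± 0.38), GMPR (-2.26 ± 0.30), CMPK2 (-2.22 ± 0.48) and PARP14 (-1.96 ± 0.20) were next among those that passed. Among these 6, only CMPK2 and ISG20 had Tub B levels below mock by more than 0.2 log2 units, and neither of those passed the test of Tub B against mock.

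The smallest interaction that passed was that of LGALS3BP, -0.70 ± 0.09. The 9 members that missed the threshold were LAMP3, IFI27, USP18, BST2, RSAD2, IFI44L, RTP4, EPSTI1 and MX1. Their values were negative as well, from -0.80 ± 0.48 for MX1 to -1.97 ± 0.61 for IFI27 (LAMP3 aside), and their standard errors were 0.48 to 0.76. MX1 and EPSTI1 are the members of this group with a called fall under Tub B alone. The log2 difference of MX1 with Tub B was -2.14 without TNF and -2.94 with TNF, and the difference between these did not pass (adjusted p = 0.46). A missed threshold does not show that the responses were alike. Of the 34 calls, 27 held under all 16 alternatives, and those of MX2, ISG20, IFI44, XAF1, CMPK2, HERC5 and PARP9 were lost under at least 1.

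**Figure D5:**
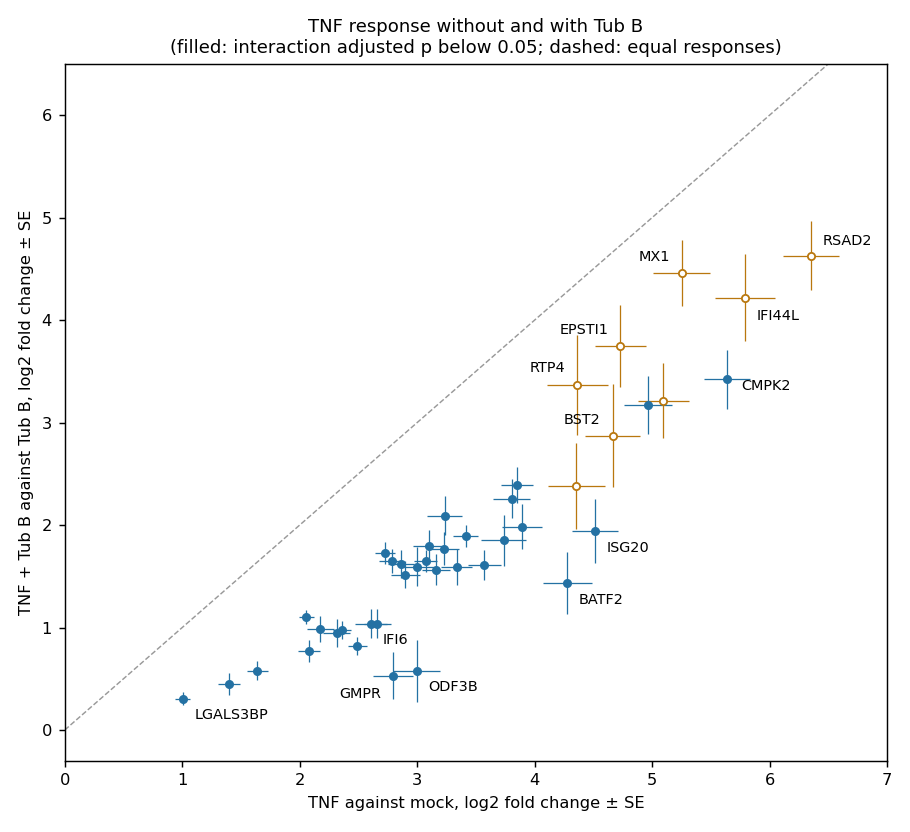
Log2 response to TNF with Tub B (vertical, TNF + Tub B against Tub B, ± SE) against the response without it (horizontal, TNF against mock, ± SE) for 42 effectors without LAMP3. Every point lies below the dashed line of equal responses, and the share of all tested genes that do so was not counted. Blue filled points passed the interaction test and orange open points did not.

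The pair of responses plotted shares no library. Across 42 members without LAMP3 the response with Tub B was the smaller in all 42, with a median ratio of 0.534. The share of all tested genes with a smaller response was not counted, and the median interaction over all tested genes was -0.011. Between the 2 responses r was 0.92 across the 42 members (rho = 0.90). With LAMP3 included, the r between the responses was 0.85 (rho = 0.86) over the 43 members. Over all tested genes, low-count genes among them, it was 0.743. The Tub B differences without and with TNF, also from separate libraries, had r = 0.66 across the 42 genes (rho = 0.64). With LAMP3 included, r was 0.47 over the 43 members (rho = 0.53), against an r of 0.404 over all genes. Genes are not independent, and these are descriptions without a test.

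The upstream genes were read beside the effectors. IFNB1, the gene of interferon-β, had 0 counts in both mock libraries, 14 and 5 with TNF, 3 and 2 with TNF + Tub B and 1 and 0 with Tub B, too few to be tested. Of 11 listed interferon ligands and receptors, 6 were tested and 5 rose with TNF (83.3%, against 17.2% of all genes tested). With TNF + Tub B against TNF, 1 of the 6 was lower (16.7%, against 13.1% of all genes tested). The receptor subunit IFNAR2 rose with TNF by 1.83 ± 0.26 and read 2.72 and 2.01 CPM with TNF + Tub B against 2.98 and 3.09 with TNF (-0.34 ± 0.23, adjusted p = 0.35). IFNAR1 read 142 and 140 CPM with TNF and 145 and 152 with TNF + Tub B (0.08 ± 0.05, adjusted p = 0.32).

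Of 13 kinases and transcription factors, 12 were tested, 10 rose with TNF (83.3%, against 17.2% of all genes), and 7 fell with TNF + Tub B against TNF (58.3%, against 13.1%). The transcription factor STAT2 read 132 and 148 CPM in mock, 384 and 439 with TNF, 175 and 212 with TNF + Tub B and 138 and 137 with Tub B. It rose with TNF by 1.56 ± 0.08 and fell with TNF + Tub B against TNF by 1.09 ± 0.08. IRF7, an amplifier of interferon genes, rose by 3.21 ± 0.12 with TNF, fell by 1.90 ± 0.11 with added Tub B, and was lower with Tub B alone (-0.80 ± 0.18). IRF1, a direct NF-κB target, rose by 2.84 ± 0.09 and fell by 1.01 ± 0.08. IRF9 rose by 1.01 ± 0.15 and did not pass with TNF + Tub B against TNF (-0.33 ± 0.15, adjusted p = 0.14). With Tub B alone, 3 of the 12 were lower (25%, against 7.91% of all genes), namely IRF7, IRF9 (-0.71 ± 0.20) and STAT3. The interaction passed in 6 of 12, all negative (50%, against 3.2% of all genes), STAT2 with -1.07 ± 0.11 among them.

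Of 7 feedback regulators, 2 rose with TNF (28.6%, against 17.2% of all genes) and 3 fell (42.9%, against 13.3%). With TNF + Tub B, 3 were lower than with TNF (42.9%, against 13.1% of all genes). SOCS1, an inhibitor of JAK kinases, rose by 1.54 ± 0.11 and fell by 1.21 ± 0.11. SOCS2 was lower with TNF (-0.56 ± 0.09) and lower again with TNF + Tub B against TNF (-1.24 ± 0.12).

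The OAS, IFIT and IFITM families, which are interferon-stimulated genes outside the 43, were read out in the same way. All 11 listed genes rose with TNF (median 3.72), against 17.2% of all genes. All 11 were lower with TNF + Tub B than with TNF (median -2.42), against 13.1% of all genes. With Tub B alone 8 of 11 were lower (72.7%, against 7.91% of all genes, median -0.78). With TNF + Tub B against mock, 8 of 11 were higher (72.7%, against 15% of all genes, median 1.28). The 2 that were lower than mock made 18.2%, against 13.9% of all genes. The interaction passed in 7 of 11, all negative (63.6%, against 3.2% of all genes, median -1.26). OAS1, an RNA-activated synthetase, rose by 5.62 ± 0.23 and fell by 3.03 ± 0.18. IFIT2, which binds viral RNA, rose by 4.50 ± 0.14 and fell by 2.52 ± 0.13. IFITM3, a block to viral entry, read 287 and 332 CPM in mock, 565 and 613 with TNF and 253 and 275 with TNF + Tub B, which was below mock (-0.23 ± 0.06).

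The NF-κB target list was read beside these. All 16 genes rose with TNF (median 4.40), against 17.2% of all genes. CCL20 had 0 and 1 counts in mock and 2 and 0 with Tub B, and CXCL2 11 and 6 and then 11 and 8. Both passed the filter on low counts only through TNF-treated libraries, which favoured their rise and their place above mock. With TNF + Tub B against TNF, 12 were lower (75%, against 13.1% of all genes) and 1 was higher (6.25%, against 7.11%, median -0.63). All 16 remained above mock (median 3.41), where 15% of all genes were higher. With Tub B alone 8 of 16 were lower (50%, against 34.9% of the effectors and 7.91% of all genes). The 1 that was higher made 6.25%, against 4.83% of all genes. The interaction passed in 4 of 16, all negative (25%, against 3.2% of all genes, median -0.21). BIRC3, an inhibitor of apoptosis, read 262 and 268 CPM with TNF and 141 and 138 with TNF + Tub B (-0.92 ± 0.06). CXCL8, a neutrophil chemokine, read 758 and 739 CPM with TNF and 986 and 835 with TNF + Tub B, the gene that was higher (0.28 ± 0.07). Counts and medians of these lists describe them, and no test between lists was made.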

How the data were processed

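Poly(A) RNA of 8 MH7A libraries was sequenced, and the values used are the raw read counts per gene symbol that the authors deposited as a single table. Per the submitters' processing notes, STAR 2.7.0 and featureCounts were used, and the builds mm10 and hg19 are named without a role. Per the labels' protocols the libraries do not mark strand. Sample columns without a match to a label numbered 0. The members and gene lists were chosen with earlier results of these data known, so patterns already described for the series give no independent support.

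Counts were tested with edgeR 4.0.16 (R 4.3.3): TMM factors, filterByExpr with a minimum count of 10 (16647 of 38173 genes kept), 1 quasi-likelihood fit of all 8 libraries by group, and Benjamini-Hochberg adjustment over all genes kept, with calls at adjusted p below 0.05. That fit had 4 residual and 13.1 prior degrees of freedom. TNF + Tub B against mock was read from the same fit. Standard errors are the log2 fold change over the root of the F statistic. LAMP3 is given as counts and count ratios, whose intervals cover counting error only. Genes set for description were, in each comparison, the 6 members of largest change with at least 5 CPM in the higher group. The 2 of smallest change, up to 6 members that missed the threshold, RSAD2, MX1 and IFI44L were added. So were the highest and lowest in mock. Their CPM is printed for many of the libraries but not for all. Other genes are examples named after their values were seen. Alternatives were DESeq2 1.42.0 and its size factors, limma-voom 3.58.1, library totals, upper-quartile scaling, no filter, a filter of 1 CPM in 2 libraries, a replicate block, the compared groups only and each library left out. Exon lengths and overlaps came from GENCODE 29 (GRCh38), a build other than the submitters', and promoter letters from RefSeq. One gene of a list is not reported here.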

Additional observations from a re-analysis of the deposited data

Results flagged for a closer look

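For 34 of the 43 effectors the response to TNF differed between cells without and with Tub B by the interaction test (edgeR's quasi-likelihood test, adjusted p below 0.05). All 34 values were negative, meaning a smaller log2 rise in the presence of Tub B, where 3.2% of the genes tested were lower and 1.04% higher. In the nuclear group the values were -2.84 for BATF2, -1.46 for IFI35, -1.37 for SP110 and -1.06 for SP100. In the nucleic-acid group they were -2.57 for ISG20, -1.91 for SAMD9L, -1.52 for HELZ2, -1.38 for DDX60L, -1.24 for DDX60, -1.19 for SAMD9 and -0.945 for IFI16. Among members with separate roles they were -2.42 for ODF3B, -2.26 for GMPR, -1.59 for PLSCR1 and -0.70 for LGALS3BP. CMPK2 had -2.22. Of the ADP-ribosylation genes PARP14 had -1.96, PARP9 -1.40, PARP10 -1.39, DTX3L -1.13 and PARP12 -1.002. In the ISG15 system the values were -1.89 for HERC5, -1.67 for UBE2L6, -1.46 for HERC6, -1.31 for UBA7 and -1.31 for ISG15. In the group of GTPases, membrane proteins and a few others MX2 had -1.79, IFI6 -1.57, IFI44 -1.55 and XAF1 -1.14. The apolipoproteins L had -1.74 (APOL3), -1.62 (APOL1), -1.43 (APOL6) and -0.96 (APOL2).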

How the results depend on the processing

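No member or list value changed direction across a call under any alternative run. The number of members called in Tub B against mock, 15 and all lower, depended most on the settings: it was 9 with DESeq2, 9 with limma-voom, 28 with no filter, 27 with the replicate block, 22 with only the groups compared and 4 to 19 when 1 library was left out. The members' median log2 rise with TNF, 3.23, ran from 2.94 without mock replicate 1 to 3.38 without mock replicate 2. The interaction count, 34, ran from 29 to 38 when 1 library was left out, and was 31 with DESeq2, 39 with the replicate block and 40 with no filter. The median share of the TNF rise left, 13.2%, was 15.2% by library totals and ran from 8.49% to 18.6% when 1 library was left out. Library totals moved the median of all genes in TNF + Tub B against TNF to 0.115 and the members' median to -1.92. Over all genes tested, deviations of same-numbered libraries had correlations of -0.048 to 0.047 (6 pairs of groups), so the numbers were not taken to pair the libraries. The effectors alone were mostly higher in replicate 2 in mock, TNF and TNF + Tub B. The replicate block left the counts of TNF against mock and of TNF + Tub B against TNF at 43. Depth limits the low members, above all LAMP3, BST2, RTP4 and EPSTI1 with Tub B alone.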
